A study of Homo sapiens with 24 samples.

Results

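The human multiple myeloma line ARP1 was described at baseline, from cells cultured with PBS, the vehicle of the series. Multiple myeloma is a cancer of plasma cells, the B lineage cells that secrete antibody. The description rests on all samples labelled as PBS, which are 12 of the 24 samples of the series and make up 3 of its 6 libraries, each read in 4 lanes. The libraries are called PBS 1, PBS 2 and PBS 3. The other 3 libraries came from cells given LPA and were not used. The treatment labels give 24 h of culture for LPA only, and the same time was taken for PBS. The labels name no added gene or deletion and describe the line as an in vitro culture of tumour cells. Nothing in them says that the 3 libraries came from separate cultures. The spread between libraries may therefore be technical, and with a single group no test was made.

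Plasma cells develop from activated B cells when the transcription factors IRF4 and PRDM1 (BLIMP1) shut down the B cell programme. XBP1, made active by the stress sensor IRE1 (gene ERN1), then enlarges the endoplasmic reticulum (ER) and its folding, glycosylation and export machinery. Myeloma cells keep much of this secretory state while they divide, and they depend on the proteasome, on the BCL2 family protein MCL1 and on signals from the bone marrow such as interleukin 6.

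Values are in FPM, the CPM unit for fragments, in which the value of a gene is its count scaled to the total counted in the lane. The lanes of a library were averaged, and means are given with the SD over n = 3 libraries. The libraries held 5615625, 5529582 and 5498910 reads for PBS 1, PBS 2 and PBS 3, so 1 read was worth 0.178 to 0.182 FPM, and a count of 0 allows up to 3 reads, which were worth 0.534 to 0.546 FPM in a library. Of the 19158 genes listed, 16096 reached 1 FPM, 10007 reached 10 FPM, 1358 reached 100 FPM and 36 reached 1000 FPM. PBS 1 and PBS 3 were close to each other, with a ratio of chi-square to its degrees of freedom of 1.33, where lanes of the same library gave 1.14 to 1.23. Libraries were compared on reads summed over lanes and lanes singly, so these ratios rest on different depths. PBS 2 stood apart, at 3.66 from PBS 1 and 3.74 from PBS 3. Among the 3200 nuclear protein-coding genes of at least 50 FPM, PBS 2 had the highest value of the 3 libraries for 2276, and the median coefficient of variation was 5.67%. Means without PBS 2 are given beside the shares of RNA classes that follow. For single genes, without it the mean of every listed gene of the lists used here with at least 10 FPM (536 genes) was 0.881 to 1.11 times the mean over all 3 libraries.

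Noncoding RNAs led the libraries. The 7SL RNA genes RN7SL1, RN7SL2 and RN7SL3, whose RNA is the scaffold of the signal recognition particle that brings ribosomes making secreted proteins to the ER, together took 11.1%, 9.65% and 11.2% of the reads in PBS 1, PBS 2 and PBS 3 (10.7% ± 0.871, and 11.2% without PBS 2). 7SK RNA, which holds the elongation factor P-TEFb inactive, took 2.81%, 2.54% and 2.86% (2.84% without PBS 2). MALAT1 and NEAT1, long RNAs of nuclear speckles and paraspeckles, took 3.22%, 3.5% and 3.32% (3.27% without PBS 2). For 7SL and 7SK RNA, PBS 2 was the lowest library, and for MALAT1 and NEAT1 it was the highest. Small nuclear, small nucleolar and Cajal body RNAs (239 genes) took 2.44%, 1.72% and 2.70%, with a mean of 2.29% ± 0.506, or 2.57% without PBS 2. Some of these genes had reads identical to those of a copy, and with such identifiers counted once the mean was 1.79%. The RNA subunits of RNase P and RNase MRP, enzymes that cut tRNA and rRNA precursors, took 0.989% ± 0.0182 (0.999% without PBS 2). The 15648 listed nuclear protein-coding genes together took 57.1%, 60.9% and 57.7% of the reads (58.6% ± 2.02, and 57.4% without PBS 2). A further 12.6% ± 0.931 (13.05% without PBS 2) of the counted reads lay outside the listed genes. How the RNA was selected before sequencing is not given in the sources used here beyond total RNA, so these shares describe the libraries and not the molar content of the cells.

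**Figure D1:**
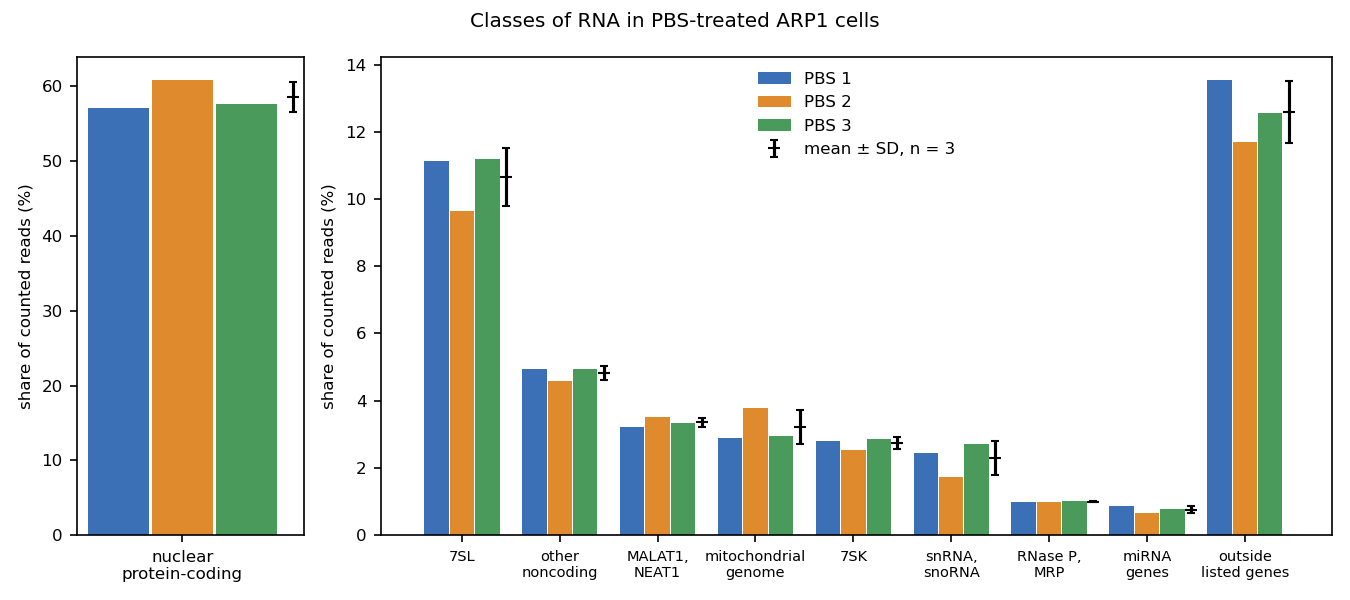
Share of all counted reads (%, y axis) taken by each class of RNA (x axis), with 1 bar for each of PBS 1, PBS 2 and PBS 3 and the mean ± SD beside them; both panels start at 0 and have their own scale. PBS 2 had the highest share of protein-coding (60.9%) and mitochondrial reads (3.79%) and the lowest of 7SL (9.65%) and small nuclear and nucleolar RNA (1.72%).

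RN7SL1 had 66619, 56046 and 66400.5 FPM in PBS 1, PBS 2 and PBS 3, the highest value of any listed gene. RN7SL2 had 43031, 39199 and 43826 FPM and ranked second, and RN7SL3 had 1678, 1294 and 1674 FPM. PBS 2 was the lowest library for all 3 genes, which are near copies of each other. The rule by which reads of several matching genes were assigned is not given in the sources used here, so the split between the copies is uncertain and their sum is the firmer value.

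After 7SL came MALAT1 with 28686, 31225 and 29628 FPM, RN7SK with 28109, 25445 and 28626 FPM and MIR663AHG, the host transcript of a microRNA gene, with 22903, 17448 and 22683 FPM. MALAT1 was highest in PBS 2, and RN7SK and MIR663AHG were lowest there. RPPH1, the RNA of RNase P, had 9251, 8962 and 9279 FPM, and SNORD3A, the U3 RNA that guides cutting of pre-rRNA, had 4287, 2806 and 4734 FPM. The 10 highest genes together took 21.5% ± 1.15 of the reads, the 20 highest 24.3% ± 1.11 and the 100 highest 31.2% ± 1.19, or 22.2%, 24.9% and 31.9% without PBS 2. Of the reads on listed genes, 50% fell on the 523, 640 and 519 highest genes of PBS 1, PBS 2 and PBS 3. Within the nuclear protein-coding genes that point was reached at 1469, 1484 and 1464 genes. The concentration of reads on the highest genes thus differed less between libraries among messenger RNAs than among all RNAs.

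**Figure D2:**
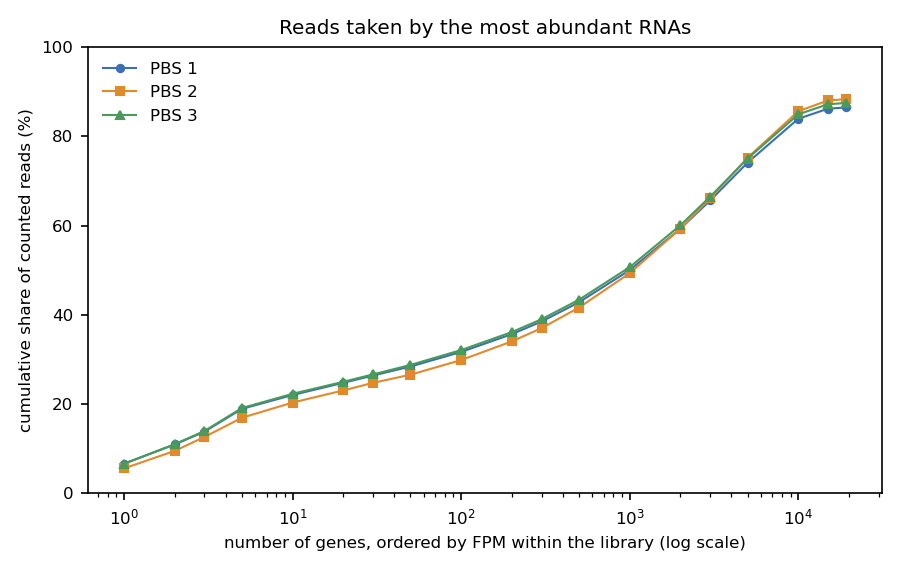
Cumulative share of all counted reads (%, y axis) taken by the highest genes of a library, by number of genes (log scale, x axis), with 1 line for each of PBS 1, PBS 2 and PBS 3. The lines end at 86.5%, 88.3% and 87.5%, the share of reads on listed genes, and PBS 2 lies below the others up to 1000 genes.

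The mitochondrial genome, with 14 listed genes, took 2.90%, 3.79% and 2.94% of the reads (3.21% ± 0.501, and 2.92% without PBS 2). Its 13 protein genes together had 28991, 37867 and 29402 FPM in PBS 1, PBS 2 and PBS 3. Nearly all of this share was thus messenger RNA. With 13 of the 14 listed genes encoding proteins, the mitochondrial rRNA genes cannot all be listed. The level of mitochondrial rRNA therefore cannot be judged from this share. PBS 2 had the highest share. MT-CO1, the core subunit of cytochrome c oxidase, had 8469, 10752 and 8624 FPM, and MT-ND4 of complex I had 3460.4, 4722 and 3529.9 FPM. By FPM per kb of exon, the scale used here to compare genes, MT-CO1 had 6019 and MT-ND6, the protein gene on the other strand from the rest, had 1345 FPM per kb. MT-ND4 overlaps MT-ND4L, and MT-ATP6 overlaps MT-ATP8 and MT-CO3, so reads of these pairs cannot be told apart where they overlap.

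For messenger RNAs, genes were ranked by FPM per kb of exon among the 15648 listed nuclear protein-coding genes, and the percentile of a gene is its place in that order, with 100 the highest. The median of these genes was 16 FPM and 3.32 FPM per kb. As background for the counts that follow, 10% of them lie in the top 10% by FPM per kb, which begins at 15.3 FPM per kb. At the other levels used here, 8.07% had at least 100 FPM and 12.1% had less than 1 FPM.

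The translation factor EEF1A1 led this order with 928 FPM per kb, followed by the ferritin light chain FTL with 868, the chemokine CCL3 with 673 and the ribosomal protein RPL41 with 629 FPM per kb. Next came the elongation factor EEF2 with 601 and RPS27 with 492 FPM per kb. JCHAIN, the joining chain that links IgA and IgM into polymers, was the 7th gene with 449 FPM per kb, and TXNDC5, a disulfide isomerase of the ER, was the 10th with 422 FPM per kb. Of the 20 highest genes, 8 encoded ribosomal proteins (RPL41, RPS27, RPS3A, RPL13A, RPS12, RPS18, RPL19 and RPLP0), and the 85 cytosolic ribosomal protein genes listed took 3.01% ± 0.0394 of the reads. Other members of the top 20 were the class I genes B2M with 2014, 2168 and 2108 FPM and HLA-B with 903, 849 and 911 FPM. EEF1A1, FTL, CCL3, the ribosomal proteins, the histones and the HLA genes have near-identical copies, and their values are uncertain to that extent.

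Ranked by FPM, an order that also depends on length, the highest nuclear genes after EEF1A1, EEF2 and B2M were TXNDC5 with 1851, 1831 and 1866 FPM, AHNAK, a giant membrane-associated scaffold, with 1775, 1757 and 1871 FPM, and ST6GAL1, the Golgi sialyltransferase that caps N-glycans, with 1488, 1668 and 1482 FPM. TXNDC5 differed little between libraries, while ST6GAL1 was highest in PBS 2 and averaged 1485 FPM without it. WARS1, the interferon-inducible tryptophanyl-tRNA synthetase, had 1084, 1267 and 1071 FPM and was highest in PBS 2 as well, with 1077 FPM without it. CCL3, known in myeloma as a chemokine that acts on osteoclasts, had 991, 1017 and 1007 FPM. TXNDC5 shares exon bases with the read-through gene BLOC1S5-TXNDC5 and WARS1 with WDR25.

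**Figure D3:**
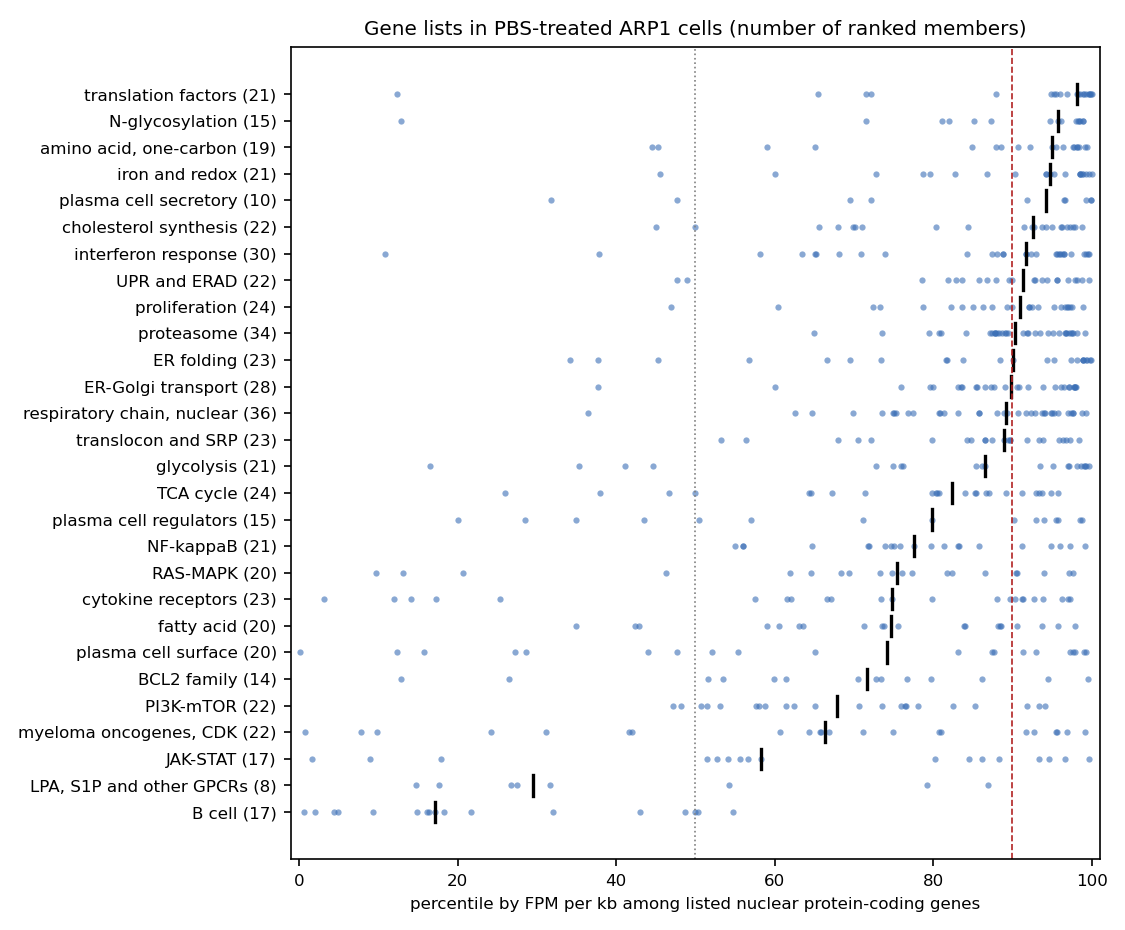
Percentile by FPM per kb (x axis; 50 dotted, 90 dashed) of every ranked member of 28 gene lists (rows, ordered by median), computed from the mean of the 3 PBS libraries; each point is a gene and the black bar is the median of the list. The medians run from 98.2 for translation factors to 17.2 for B cell genes.

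The 5 genes given as markers of these cells were all well above the median gene. IRF4, a regulator on which myeloma cells depend, had 332, 356 and 339.8 FPM in PBS 1, PBS 2 and PBS 3 (percentile 98.5). XBP1, the factor of the secretory programme, had 205, 206 and 192 FPM (percentile 98.8). The 3 libraries lay close together for both genes. The surface proteoglycan SDC1 (CD138), by which plasma cells are sorted, had 62, 60.4 and 59.6 FPM (percentile 91.3). TNFRSF17 (BCMA), a receptor for the survival factors BAFF and APRIL, had 92.6, 95.5 and 95.1 FPM (percentile 99.1). JCHAIN had 721, 809.8 and 730.3 FPM and was highest in PBS 2. None of the 5 goes against the label of a myeloma line. JCHAIN, the highest of them, shares exon bases with ENAM.

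Among the 15 listed regulators of the plasma cell state, 7 lay in the top 10% and the median percentile was 79.9, against 50 for all genes by construction. Besides IRF4 and XBP1 these were ELL2, an elongation factor that favours the secreted form of immunoglobulin mRNA, with 199.6 ± 4.76 FPM, and IKZF3 (Aiolos), the zinc finger protein removed by lenalidomide, with 263 ± 19.7 FPM. The others were ZBTB38 with 306 ± 33.7, the coactivator POU2AF1 with 145 ± 7.96 and PRDM1 with 99 ± 9.97 FPM. IKZF3 exceeded its relative IKZF1 by a ratio of 3.83 ± 0.169 in FPM per kb (mean ± SD over the 3 libraries, as for each ratio here). Ratios between genes depend on the length used, and by the longest transcript of each gene this one was 2.26. The low end of the list held BHLHA15 (MIST1), a factor of secretory cells, with 1.25, 1.09 and 0.18 FPM, which rests on 14 reads in all. ZBTB20, which sustains long-lived plasma cells in the mouse, had 16.6 ± 3.2 FPM and lay at percentile 20.1.

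The surface genes were split. Of 20 genes of the plasma cell and myeloma surface 7 lay in the top 10%, and the median percentile was 74.1. The interferon-inducible tetherin BST2 was the highest by FPM per kb with 120.1, 103 and 114 FPM (percentile 99.3), followed by TNFRSF17. The hyaluronan receptor CD44 had 419, 495 and 416 FPM (percentile 97.9), and the costimulatory receptor CD28, better known from T cells and present on some myelomas, had 197, 235 and 184 FPM (percentile 97.7). CD44 and CD28 were both highest in PBS 2. The homing receptor CXCR4 had 82.9 ± 5.36 FPM and SLAMF7, a target of therapeutic antibodies, 63.5 ± 10 FPM. Some other antibody targets, unlike TNFRSF17, were low. CD38, an ectoenzyme usually abundant on plasma cells, had 6.23, 8.33 and 7.28 FPM (percentile 28.6). GPRC5D, an orphan receptor, had 1.24, 1.26 and 0.722 FPM. CD27, a marker of memory B cells and normal plasma cells that myeloma often lacks, had 6 reads in all, with 0 in PBS 1, and NCAM1 (CD56) had 4 reads.

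**Figure D4:**
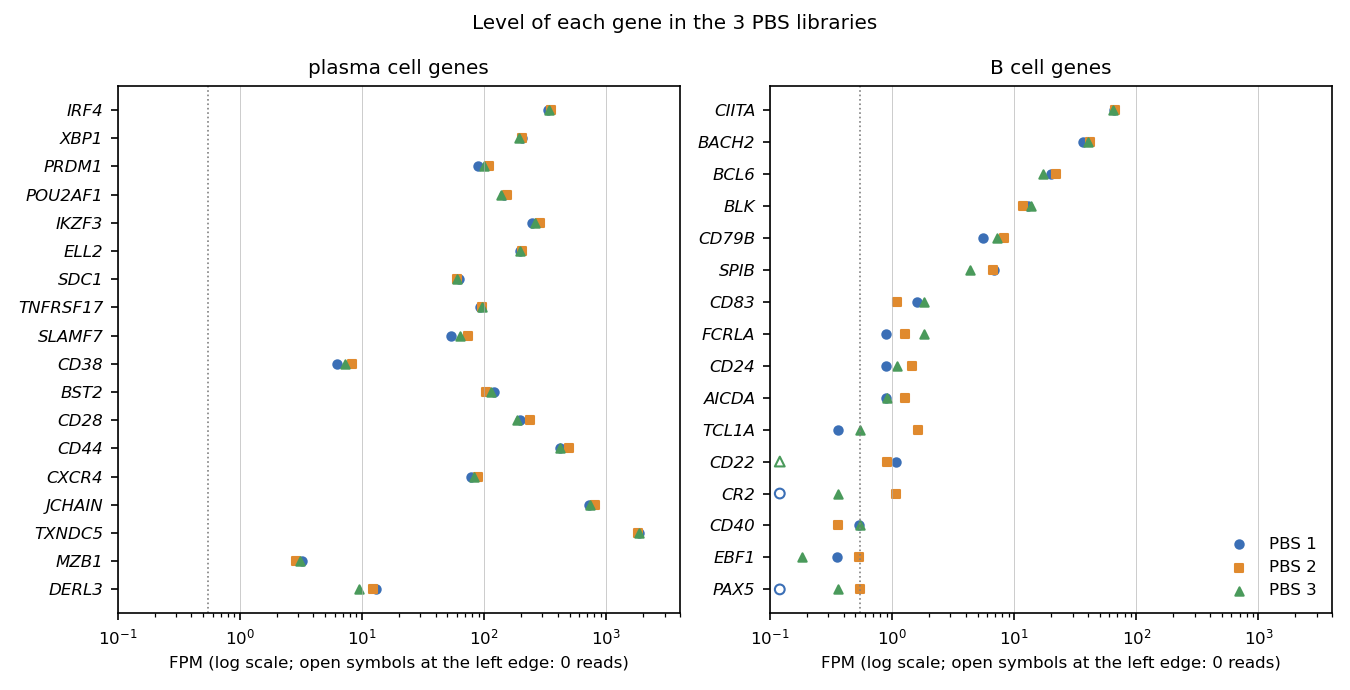
Level in FPM (log scale, x axis) of plasma cell genes (left) and B cell genes (right) in PBS 1, PBS 2 and PBS 3; open symbols at the left edge stand for 0 reads and the dotted line for 3 reads in a library (0.546 FPM). JCHAIN and TXNDC5 lie furthest right, MZB1, CD38 and DERL3 are the lowest of the plasma cell genes shown, and 6 of the 16 B cell genes shown average less than 1 FPM.

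Genes of B cells before the plasma cell stage were mostly low. Of 20 such genes 17 were listed, 0 lay in the top 10%, 6 had less than 1 FPM, and the median percentile was 17.2. PAX5, the factor that holds B cell identity, had 5 reads over the 3 libraries, 0 of them in PBS 1. EBF1, which acts with it, had 6 reads. At this depth such counts do not tell low expression from none. The list held 4 genes of at least 10 FPM, all regulators or signalling genes. CIITA, the activator of MHC class II genes, had 65.7, 66.9 and 64.5 FPM, BACH2, a repressor of PRDM1, 36.3, 41.5 and 40 FPM, BCL6, the germinal centre repressor, 19.9, 22.1 and 17.1 FPM, and the kinase BLK 12.8, 11.8 and 13.6 FPM. MS4A1 (CD20), CD79A and FCER2 were not listed. The table lists only genes with at least 10 reads over all 24 lanes of the series. A gene that is not listed may have been low, not counted, or counted and left out. As 12.6% of the counted reads lay outside the listed genes, some such genes may have been abundant.

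Immunoglobulin genes could not be read from the table. Of 18 immunoglobulin genes and surrogate light chain genes looked for, 2 were listed, and 0 listed identifiers belong to the immunoglobulin or T cell receptor gene classes of the annotation, so nothing follows from their absence. IGLL5, whose exons resemble the lambda constant region, had 73.8, 67.1 and 76.8 FPM (percentile 98.4), and its reads may be shared with light chain genes. VPREB3, a surrogate light chain gene, had 1.07, 0.365 and 1.09 FPM. Of 49 markers of T and NK cells, myeloid cells, red cells and platelets, stroma and epithelium, 29 were listed and 0 lay in the top 10%. They summed to 74.8 to 79.3 FPM per library. Among the 29, 13 had less than 1 FPM, 14 had 1 to 5 FPM and 2 had more, the NK receptor KLRD1 with 22.6 ± 3.01 FPM and the collagen COL1A1 with 14.6 ± 2.41 FPM.

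The secretory genes stood high from the entry of proteins into the ER onward. Of 23 genes of the signal recognition particle, translocon and signal peptidase, 8 lay in the top 10% and 0 below 10 FPM, with a median percentile of 89. SRP9, a protein that binds 7SL RNA, led by FPM per kb with 93, 97.1 and 96.9 FPM (percentile 98.4). SEC61A1, the channel through which proteins enter the ER, had 175, 194 and 161 FPM and was highest in PBS 2. SRP14, the partner of SRP9, had 67.3 ± 4.06 FPM and the channel partner TRAM1 119 ± 15.2 FPM. SEC63 and SRP19 were the lowest, at percentiles 53.2 and 56.4.

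Of 15 N-glycosylation genes 9 lay in the top 10%, with a median percentile of 95.8. The oligosaccharyltransferase subunits RPN2, DDOST and RPN1 had 209.6 ± 8.49, 156 ± 10.5 and 193 ± 6.2 FPM. GANAB, the catalytic chain of glucosidase II, which trims glycans so that calnexin can bind, had 359.7, 368 and 360.1 FPM (percentile 98.9). The exception was TUSC3 with 1.42, 1.63 and 1.09 FPM, an oxidoreductase subunit at percentile 12.8, whose relative MAGT1 lay at percentile 94.8.

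Among 23 ER folding genes 12 lay in the top 10%, 9 had at least 100 FPM and the median percentile was 90.1. Next to TXNDC5, HSPA5 (BiP), the ER chaperone of the HSP70 family, had 763, 727 and 756 FPM (percentile 99.8). The lectin chaperones CANX and CALR had 455, 499 and 477 FPM and 278, 291 and 291 FPM. HSP90B1 (GRP94) had 464, 446 and 448 FPM and the disulfide isomerase P4HB 371, 394 and 358 FPM. All of these varied little between libraries. At the low end lay ERO1B and CRELD2, at percentiles 34.2 and 37.7, and FKBP2 had 6.9 ± 0.99 FPM. In the list of plasma cell secretory genes, 6 of 10 lay in the top 10%. MZB1, a cofactor of HSP90B1 that is typical of plasma cells, was an exception with 3.21, 2.89 and 3.09 FPM (percentile 31.7), and so was DERL3, an ER degradation factor, with 13, 12.3 and 9.46 FPM. HSP90B1 shares exon bases with UQCC6, PDIA6 with ATP6V1C2 and CANX with CBY3.

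The ER stress response element is the promoter motif through which ATF6 and NF-Y act on chaperone genes. Spelled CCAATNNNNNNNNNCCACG and read on both strands of the 250 bases before the start of each gene, it was found in 25 of the 27305 genes of the RefSeq promoter table (0.0916%). Of the 22 ER folding genes covered there, 7 held it: HSPA5, HSP90B1, CALR, CANX, PDIA6, ERO1B and CRELD2. Of the other lists searched, XBP1 held it among 20 genes of the unfolded protein response and ER-associated degradation, and 0 of 20 translocon, 11 glycosylation and 24 ER to Golgi genes did. The genes that held it ranged widely in level: HSPA5 lay at percentile 99.8 and ERO1B at 34.2. As the motif is known from chaperone genes, its presence in them is a description and was not tested. A match is a run of letters and not a shown binding site. The stretches of the abundant chaperones and of XBP1 are given because they carry the motif at once in the factor and in the genes of the ER, from RefSeq on GRCh38.p14, in the direction of transcription and with the fixed letters of the motif (or of its reverse complement) in capitals. They lie at chr9:125241371-125241429 (minus strand), chr19:12938364-12938422 (plus), chr5:179698758-179698816 (plus), chr2:10812833-10812891 (minus) and chr22:28800583-28800641 (minus).
HSPA5: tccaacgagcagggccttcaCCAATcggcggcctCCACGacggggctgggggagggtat
CALR: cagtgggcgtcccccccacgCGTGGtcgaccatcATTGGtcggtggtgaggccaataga
CANX: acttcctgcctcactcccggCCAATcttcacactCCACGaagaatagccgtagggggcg
PDIA6: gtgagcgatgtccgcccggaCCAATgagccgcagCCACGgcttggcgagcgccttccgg
XBP1: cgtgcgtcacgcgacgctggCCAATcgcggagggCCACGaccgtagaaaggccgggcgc

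Stress sensors and ER-associated degradation were expressed along with the chaperones. Of 22 genes 11 lay in the top 10%, 10 had at least 100 FPM and 0 had less than 10 FPM, with a median percentile of 91.3. ERN1 (IRE1), which splices XBP1 mRNA, had 204, 211 and 202 FPM, and the kinase EIF2AK3 (PERK) had 137, 157 and 141 FPM. ATF4, the factor translated when PERK is active, had 371, 374 and 392 FPM (percentile 99.6), while DDIT3 (CHOP), its partner in prolonged stress, had 27.6, 28.2 and 26.4 FPM (percentile 93.8). HERPUD1 and SEL1L of the degradation complex had 253 ± 13.2 and 335 ± 14.4 FPM, and VCP, the ATPase that pulls proteins out of the ER, had 245 ± 7.77 FPM. Spliced and unspliced XBP1 cannot be told apart in gene-level values.

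Transport to the Golgi and the proteasome followed the same pattern. Of 28 genes of ER to Golgi transport 14 lay in the top 10%, with a median percentile of 89.8. ARF1, the GTPase that recruits the COPI coat, led by FPM per kb with 151 ± 11.5 FPM, followed by the cargo receptors TMED10 and TMED2 with 223 ± 12 and 170.3 ± 7.57 FPM. The COPI subunit COPA had 333, 345 and 329 FPM. KDELR3 was the lowest with 3.02, 3.44 and 4.73 FPM (percentile 37.7), and KDELR1, which returns the same ER proteins, lay at percentile 97.7. Among 34 proteasome genes 17 lay in the top 10% and 0 had less than 10 FPM, with a median percentile of 90.4. PSMB4 was the highest with 186, 192 and 176 FPM. PSMB5, the subunit bound by bortezomib, had 32.6, 36 and 34 FPM (percentile 92.9), and the immunoproteasome subunits PSMB8, PSMB9 and PSMB10 had 61.3 ± 3.72, 54.1 ± 1.08 and 26.3 ± 2.35 FPM. PSMB8 and PSMB9 share exon bases.

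Interferon response genes stood high in these cells, for which the labels name no added interferon. Of 31 interferon response genes 30 were listed, 16 lay in the top 10% and 10 had at least 100 FPM, with a median percentile of 91.7. IFIT3, an antiviral RNA-binding protein, had 338, 365 and 339.9 FPM (percentile 99.6), and MX1, a dynamin-like antiviral GTPase, had 222, 240.2 and 226 FPM. IFIT3 and MX1 were each highest in PBS 2. The ubiquitin ligase HERC5 had 184 ± 4.85 FPM, the RNA sensor IFIH1 (MDA5) 151 ± 9.85 FPM and OAS2, which makes the signal for RNase L, 177 ± 11.4 FPM. ISG15, the ubiquitin-like protein that HERC5 attaches, had 28.3, 21.7 and 23.8 FPM, which on its short exons gave percentile 95.5. The family of IFITM proteins was split: IFITM1 had 27.9, 33.8 and 27.3 FPM, IFITM2 4.28, 0.539 and 4.19 FPM and IFITM3 5 reads in all. IFIT2 shares exon bases with LIPA and RSAD2 with CMPK2.

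The interferon-stimulated response element is the promoter motif through which type I interferon acts on many of these genes. Its core GAAANNGAAA, read on both strands, occurred in the 250 bases before the start of 1014 of the 27305 RefSeq genes (3.71%). Of the 22 interferon response genes covered there, 17 held it, among them IFIT3, MX1, ISG15, RSAD2, BST2 and HERC5. This motif too is known from such genes, so the count is a description and was not tested. Stretches of 3 of these are shown, with the fixed letters in capitals as above, for ISG15 at chr1:1013364-1013419, for MX1 at chr21:41431834-41431883 and for RSAD2 at chr2:6877612-6877661, all on the plus strand of GRCh38.p14.
ISG15: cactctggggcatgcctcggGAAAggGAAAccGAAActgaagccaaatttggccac
MX1: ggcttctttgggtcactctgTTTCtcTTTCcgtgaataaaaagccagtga
RSAD2: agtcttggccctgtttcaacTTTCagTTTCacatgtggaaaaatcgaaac

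Among cytokine, chemokine and growth factor receptors 23 of 24 were listed and 8 lay in the top 10%, with a median percentile of 74.8. IL6R, the receptor chain for the main growth factor of myeloma, had 217, 245 and 210.4 FPM (percentile 97), and its signalling partner IL6ST (gp130) had 145, 177 and 149 FPM (percentile 91.3). Both were highest in PBS 2. The insulin receptor INSR had 301, 329 and 295 FPM (percentile 96.3), above IGF1R with 84.8, 85 and 81.8 FPM (percentile 67.1). The type I interferon receptor genes IFNAR1 and IFNAR2 had 133 ± 14.3 and 69.5 ± 5.35 FPM, and NOTCH2 had 229.6 ± 8.37 FPM (percentile 88) beside 2.58 ± 1.33 FPM for NOTCH1 (percentile 12). The receptor TGFBR2, without which cells do not sense TGF-beta, had 6 reads in all, while TGFBR1 had 30.2 ± 1.4 FPM. The chemokine receptor CCR2 had 58.3 ± 4.06 FPM and CCR1, a receptor for CCL3, 13.8 ± 2.11 FPM.

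Of 12 G protein-coupled receptors looked for, mostly of lysophospholipids, 8 were listed and 0 lay in the top 10%, a count that at this number of genes is near the background share. The receptors of lysophosphatidic acid that were listed were low. LPAR2 had 3.38, 4.71 and 3.81 FPM, LPAR6 3.75, 4.35 and 3.82 FPM and LPAR3 0.891, 1.44 and 1.09 FPM, and LPAR1, LPAR4 and LPAR5 were not listed. The sphingosine 1-phosphate receptors S1PR2 and S1PR1 had 33 ± 3.11 and 20.6 ± 1.87 FPM, above the median gene by FPM per kb, and S1PR2 shares exon bases with DNMT1. The highest of the group was P2RY8, a receptor of germinal centre B cells, with 51.5, 61 and 58.6 FPM (percentile 86.9).

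In the JAK-STAT pathway 4 of 17 listed genes lay in the top 10%, with a median percentile of 58.2. The median was 77.6 with only genes of at least 1 FPM ranked and 70.5 by the longest transcript, so the place of this list is uncertain. STAT3, the factor through which interleukin 6 acts, had 113, 110.3 and 100.2 FPM (percentile 86.2). The kinase TYK2 had 218 ± 3.61 FPM, JAK1 88.2 ± 4.22 FPM and JAK2 25.5 ± 0.926 FPM. SOCS3, an inhibitor of gp130 signalling, had 25.8 ± 1.81 FPM. The phosphatase PTPN6, abundant in many blood cells, was at 0.891, 1.09 and 0.733 FPM and SOCS2 at 6 reads in all.

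All 21 NF-kappaB genes had at least 10 FPM, and 5 lay in the top 10% (median percentile 77.6). The inhibitor NFKBIA had 221, 205 and 236 FPM (percentile 99.2). NFKB2, the p100 precursor of the noncanonical arm, had 161, 167 and 168 FPM and exceeded NFKB1 by a ratio of 5.25 ± 0.26 in FPM per kb. BIRC3 and TRAF3, which keep the kinase NIK (MAP3K14) low, had 213 ± 16.3 and 99.3 ± 5.2 FPM, and MAP3K14 itself had 24.2 ± 3.99 FPM. TNFAIP3 (A20), a brake on the canonical arm, had 122 ± 4.45 FPM.

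Of 20 listed RAS-MAPK genes 5 lay in the top 10% (median percentile 75.5). NRAS had 149.6, 175 and 164 FPM (percentile 97.2) and HRAS 3.38, 7.75 and 4.89 FPM (percentile 46.3). The genes that dampen ERK were uneven: the nuclear phosphatase DUSP5 had 109, 109 and 108 FPM (percentile 97.7), whereas DUSP6 and DUSP4 had 1.96, 3.42 and 2.18 FPM and 2.49, 1.99 and 1.45 FPM. Among 22 PI3K-mTOR genes 3 lay in the top 10% and the median percentile was 67.8, and MTOR had 99.7 ± 3.87 FPM and its inhibitor DEPTOR, abundant in some myelomas, 9.93 ± 1.53 FPM.

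**Figure D5:**
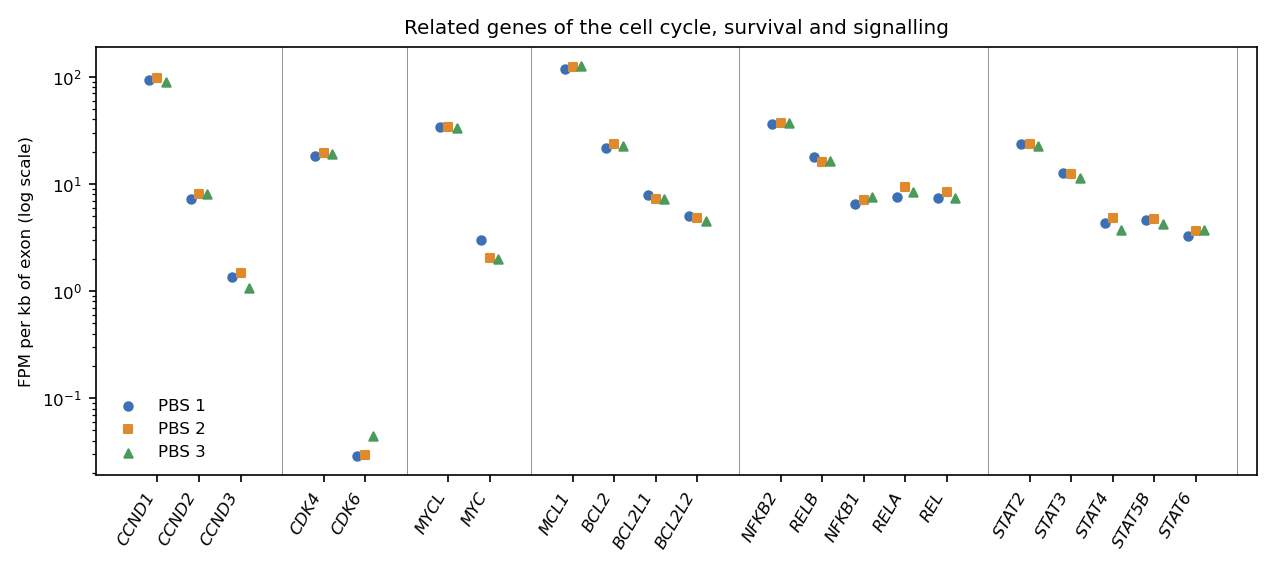
FPM per kb of exon (log scale, y axis) of related genes (x axis, in families parted by lines) in PBS 1, PBS 2 and PBS 3. CCND1 lies above CCND2 and CCND3, CDK4 above CDK6, MYCL above MYC, MCL1 above BCL2 and BCL2L1, and NFKB2 above the other NF-kappaB subunits in each library.

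Myeloma tumours are commonly grouped by the D cyclin they express. CCND1 had 448, 470.2 and 436 FPM in PBS 1, PBS 2 and PBS 3 (percentile 99.2), CCND2 52.3, 57.9 and 57.3 FPM (percentile 75) and CCND3 7.83, 8.51 and 6.2 FPM (percentile 31.1). In FPM per kb, CCND1 exceeded CCND2 by a ratio of 12 ± 0.70 and CCND3 by 73.2 ± 9.88, and in all 3 libraries the order was the same. By the longest transcript the ratio to CCND3 was 33.9. Their kinase CDK4 had 57.9, 61.1 and 60.9 FPM, while CDK6 had 7 reads in all. Of the other genes moved by translocations in myeloma, FGFR3 and MAFA were low and MAF was not listed, with 16 reads for FGFR3 and 1.87 ± 0.757 FPM for MAFA. NSD2, which the translocation that activates FGFR3 also activates, was not low, with 198, 195 and 185 FPM (percentile 81). These data hold no genome sequence, and no translocation was looked for.

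Of the MYC family, MYCL was the highest with 174, 173 and 168 FPM (percentile 96.9). MYC had 9.08, 6.15 and 6.0 FPM (percentile 41.6), and MYCN was not listed. The ratio of MYCL to MYC in FPM per kb ran from 11.4 to 16.7 over the libraries, lowest in PBS 1, where MYC was highest. The tumour suppressor RB1 had 15.4 ± 2.91 FPM, and the ubiquitin ligase gene MDM2 had 128 ± 10.1 FPM. CRBN (cereblon), the target of lenalidomide, had 42.5, 55.2 and 47.1 FPM (percentile 66.9). CCND1 shares exon bases with LTO1, CDK4 with TSPAN31, MYCL with MYCL-AS1 and MCL1 with ADAMTSL4-AS1.

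In the BCL2 family MCL1 stood first with 517, 535 and 546 FPM (percentile 99.5) and BCL2 second with 258, 281 and 267 FPM (percentile 94.5). BCL2L1 (BCL-XL) had 26, 23.8 and 23.8 FPM, which put MCL1 above it by a ratio of 16.5 ± 1.25 in FPM per kb. Of the killers BMF had 66.4 ± 1.11 FPM and BCL2L11 (BIM) 44.8 ± 0.98 FPM. PMAIP1 (NOXA), which binds MCL1, had 10 reads in all, with 0 in PBS 2. The 2 survival genes at the head of the list were its only members in the top 10%.

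Genes of DNA replication and division were high, with 12 of 24 in the top 10% and a median percentile of 91. The replication clamp PCNA had 109.9, 109.5 and 117 FPM (percentile 99), thymidylate synthase TYMS 104, 97.1 and 96.8 FPM and topoisomerase TOP2A 229, 237 and 245 FPM (percentile 97.2). The marker of cycling cells MKI67 had 226, 254 and 236 FPM. The G1/S cyclins CCNE1 and CCNE2 lay lowest, at percentiles 46.9 and 60.5.

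In glycolysis 10 of 21 genes lay in the top 10% (median percentile 86.6). GAPDH had 441, 483 and 439 FPM (percentile 99.7), ENO1 494, 521 and 503 FPM, PGK1 487, 504 and 484 FPM and PKM, the last ATP-making enzyme, 731, 716 and 715 FPM. The entry steps were lower. The glucose transporters SLC2A1 and SLC2A3 had 11.2, 11 and 10.4 FPM and 0.709, 3.42 and 2.91 FPM, at percentiles 41.1 and 16.5, and the hexokinases HK2 and HK1 lay at percentiles 44.6 and 76.2. Lactate dehydrogenase LDHA had 217 ± 11.8 FPM. SLC2A3 was lowest in PBS 1 and rests on few reads.

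The TCA cycle had 6 of 24 genes in the top 10% (median percentile 82.4) and the nuclear genes of the respiratory chain 17 of 36 (median percentile 89.1). Citrate synthase CS had 134 ± 3.35 FPM. Pyruvate carboxylase PC, which feeds pyruvate into the cycle, had 5.52, 3.8 and 6.0 FPM (percentile 26). The ATP synthase subunit ATP5F1B led the respiratory genes with 218, 252 and 233 FPM (percentile 99.3).

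Amino acid and one-carbon genes had 12 of 19 members in the top 10% (median percentile 95). The neutral amino acid transporters led them: SLC38A2 had 667, 752 and 681 FPM (percentile 99.4), SLC7A5 (LAT1) 429, 442 and 416 FPM (percentile 99.2) and its partner SLC3A2 266, 258 and 258 FPM (percentile 98.2). The mitochondrial folate enzyme MTHFD2 had 262, 273 and 277 FPM (percentile 98.4). Its neighbour in the mitochondrial arm SHMT2 exceeded the cytosolic SHMT1 by a ratio of 8.82 ± 0.923 in FPM per kb, or 4.73 by the longest transcript. PSAT1 of serine synthesis had 108 ± 6.33 FPM and asparagine synthetase ASNS, a target of ATF4, 116 ± 8.59 FPM.

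Cholesterol synthesis had 13 of 22 genes in the top 10% (median percentile 92.6). INSIG1, which retains the SREBP factors in the ER when sterol is plentiful, was the highest with 230.1, 261 and 241 FPM (percentile 98.8), followed by MSMO1 and CYP51A1 of the late pathway with 128 ± 2.01 and 149.6 ± 3.68 FPM. Of the SREBP genes SREBF2, which favours cholesterol genes, had 215, 224 and 213 FPM (percentile 96.1) and SREBF1, which favours fatty acid genes, 21.7, 19 and 17.8 FPM (percentile 42.3). Fatty acid genes had 4 of 20 in the top 10% (median percentile 74.7), led by the desaturase SCD with 227, 252 and 241 FPM (percentile 97.9).

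Iron and redox genes had 14 of 21 ranked members in the top 10% (median percentile 94.7). The ferritin chains FTL and FTH1 had 735, 814 and 736 FPM and 303, 311 and 328 FPM, and the transferrin receptor TFRC, which brings iron in, had 455, 477 and 461 FPM (percentile 98.5). The iron exporter SLC40A1 was not listed. The glutathione peroxidase GPX4, which guards against ferroptosis, had 122 ± 6.86 FPM and superoxide dismutase SOD1 198 ± 9.01 FPM, while catalase CAT had 8.73, 11.2 and 10.2 FPM (percentile 45.6). Translation factors formed the highest list, with 16 of 21 in the top 10% and a median percentile of 98.2. EEF1A2, the relative of EEF1A1 found in muscle and neurons, was at 1.43, 1.27 and 1.08 FPM.

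The libraries differed little in most of these genes. Of the 3200 nuclear protein-coding genes of at least 50 FPM, 3195 stayed within 1.5-fold between the highest and the lowest library and 86.7% had a coefficient of variation under 10%. The histone gene H4C12 varied most, with 151, 93.1 and 64.7 FPM in PBS 1, PBS 2 and PBS 3. CTAG1A and CTAG1B, the 2 copies of the cancer-testis antigen NY-ESO-1, had 65.5, 53.5 and 88.8 FPM and 79.3, 78.7 and 48.2 FPM. The 2 are near-identical genes, and the split of reads between them is uncertain. CTAG1A was highest in PBS 3 and CTAG1B in PBS 1, with PBS 2 close behind for CTAG1B. PAGE2, another cancer-testis gene, had 57.9, 49.4 and 72.5 FPM.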

How the data were processed

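RNA of the ARP1 line was measured in 3 PBS libraries, each read in 4 lanes. The authors deposited FPM per lane, the CPM unit for fragments, and in 100% of values the deposited FPM came out as whole reads within 0.02 reads. Which aligner and counter were used, with which strand setting and treatment of multiply matching reads, is not given in the sources used here. A mouse build, mm10, stands in the submitters' processing notes although the identifiers are human Ensembl ones. The build used could not be settled, so no coordinates were taken from the table. The 19345 rows of the table with a gene (1 blank row was left out) held 187 repeats, which left 19158 genes, all with a read in the PBS libraries. The lowest total of a listed gene over all 24 lanes was 10 reads.

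Lanes were averaged, and each gene was ranked by FPM per kb of union exon length. Symbols came from a table of Ensembl names (19118 found) and biotypes and lengths from GENCODE 29 (19065 found). Promoter sequences are RefSeq's. No p-value was computed and no test was made. The limit of 3 reads covers counting error only, and reads are not counted as separate molecules. PBS 1 and PBS 3 had a higher ratio of chi-square to its degrees of freedom than lanes of a library did. Single lanes hold fewer reads, so this does not show a larger difference. PBS 1 and PBS 3 were kept as separate replicates.

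The cells, the 35 gene lists (688 entries) and the rule for naming genes were chosen with earlier results of these data known. That rule took the 20 highest genes by FPM, the 20 highest nuclear protein-coding genes by FPM per kb, the highest 4 and lowest 2 members of each list, members not listed, the markers, and genes of at least 50 FPM with the 10 highest and 5 lowest coefficients of variation. Further members of the lists were named for their role after their values were seen, and some genes that the rule takes are not reported here. Steps were checked on simulated data. Python 3.11.15, pandas 2.3.3, NumPy 2.4.6 and matplotlib 3.10.9 were used.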

Additional observations from a re-analysis of the deposited data

How the results depend on the processing

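Alternatives were summing reads over lanes, leaving out each library, scaling to the listed genes, taking the median of the libraries, ranking genes of at least 1 FPM only, ranking without length or by the longest transcript, and taking the 10 highest among nuclear protein-coding genes only. That last choice can give no share of a class. Counting identical identifiers once was added after the values were seen. It gave 1.79% for small nuclear, small nucleolar and Cajal body RNAs. Scaled to the listed genes, the nuclear protein-coding share was 67.0%, that of 7SL RNA 12.2% and that of the 10 highest genes 24.6%, since the total is then smaller. The 10 highest nuclear protein-coding genes took 3.39% of the nuclear protein-coding total. The median percentile of the plasma cell regulators was 82.9 with genes of at least 1 FPM ranked, 88.9 without length and 77.2 by the longest transcript. That of the plasma cell surface genes was 83.2 with genes of at least 1 FPM ranked and 76.8 without length. For B cell genes it was 22.7 and for ER folding genes 88.8 with genes of at least 1 FPM ranked, and 91.3 for ER folding genes by the longest transcript. The ranking without length moved list medians by -18.2 (BCL2 family) to 16.5 points (PI3K-mTOR). It put the median at 80.2 for N-glycosylation, 77.3 for the nuclear respiratory chain, 73.7 for the TCA cycle and 86.9 for RAS-MAPK, so places of all these lists depend on it. With genes of at least 1 FPM ranked, list medians moved by -9.62 (lysophospholipid and other receptors) to 19.3 points (JAK-STAT), and by the longest transcript by -4.78 (BCL2 family) to 12.3 points (JAK-STAT). Leaving out a library moved list medians by -2.78 to 2.97 points, both ends in lists of other cell types, and means of listed members of at least 10 FPM by 0.870 to 1.11 times. No paired analysis was possible because no result comes from a test between groups. At this depth, genes under 1 FPM rest on about 17 reads or fewer and their order is not resolved.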

Other observations

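The microRNA entries MIR3648-1 and MIR3648-2 had identical reads in every lane, each with 3169, 2252 and 2759 FPM in PBS 1, PBS 2 and PBS 3, and MIR3648-1 lies inside the 45S rRNA gene RNA45SN2 in RefSeq. MIR3648-2 on chromosome 21, MIR663AHG on chromosome 20 and MIR663B on chromosome 2 lie in no annotated 45S gene there. In all, 13 identifiers with at least 100 reads in 4 sets had reads identical to those of another identifier in all PBS lanes, and their copies beyond the first made up 0.804% of the FPM.

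The plasma cell genes MZB1 and CD38 lay near the percentile of LPAR2 by FPM per kb, with 31.7, 28.6 and 31.6, while JCHAIN, TXNDC5 and HSPA5 were among the 40 highest nuclear protein-coding genes, at ranks 7, 10 and 37. MZB1 rests on 51 reads and CD38 on 121 over the 3 libraries, so both were detected, at low levels.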
